A study of Mus musculus with 2 samples.

Results

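The gene family described is the platelet-derived growth factor (PDGF) family of the mouse, the receptor genes Pdgfra, Pdgfrb and Pdgfrl and the ligand genes Pdgfa, Pdgfb, Pdgfc and Pdgfd. The 7 members were chosen by symbol, and all 7 were present once among the 24862 genes of the deposited table. RNA sequencing had been carried out on sorted GFP+ cells from inguinal white fat, taken from its stromal vascular fraction, the cells that collagenase releases other than fat-filled adipocytes, and the series equates GFP+ with Pref-1+, the surface protein encoded by Dlk1. There was 1 library from Sox9 PreASKO mice, also titled KO, and 1 from Sox9 floxed mice, also titled WT. All mice were males aged 3 weeks, and both groups had been given doxycycline on postnatal day 1. Cells were pooled, with the pool stated as 6 but not whether per genotype, so that no replicate stood behind any value. The labels do not name the Cre driver, nor whether floxed mice carried one. A stain for PDGFRa is listed for the cells, without its use in these libraries, so a selection on one of the proteins described here was not stated and was not tested.

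PDGF chains are secreted as dimers that bind receptor tyrosine kinases on neighbouring cells and drive the growth and migration of mesenchymal cells. The A, B and C chains act through the alpha receptor, encoded by Pdgfra, and the B and D chains through the beta receptor, encoded by Pdgfrb, while Pdgfrl encodes a receptor-like protein that lacks the kinase. In white fat the alpha receptor marks adipose precursors, the beta receptor marks precursors and the mural cells of vessels, and endothelial cells are a known source of the B chain. The series title sets PDGFRa+ cells after Pref-1+ cells on the way to adipocytes, with Sox9 and Meis1 as the factors that are inactivated.

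Because Sox9 and Meis1 encode DNA-binding factors, the promoter windows of members with a core match to either factor family are shown. Each window runs from 250 bases before to 50 after an annotated start, taken from RefSeq (GRCm38.p6) and written 5′ to 3′ on the strand of the gene. Windows were held for 4 members, and none was matched for Pdgfrb, Pdgfrl and Pdgfb. The SOX core searched for was ACAAT, which reads ATTGT on the other strand. The core searched for as that of MEIS factors was TGACAG, and its other strand was searched as well. These cores share no overlap in the windows shown, and capitals mark the matches. The Pdgfra window lies at chr5:75152001-75152300 on the + strand, with the MEIS core from position 248 of the window, so that it spans the start. The Pdgfd window lies at chr9:6168236-6168535 on the + strand, with the MEIS core from position 145. Of 2 Pdgfa windows, the one at chr5:138994232-138994531 on the - strand held the SOX core from position 118.
Pdgfra: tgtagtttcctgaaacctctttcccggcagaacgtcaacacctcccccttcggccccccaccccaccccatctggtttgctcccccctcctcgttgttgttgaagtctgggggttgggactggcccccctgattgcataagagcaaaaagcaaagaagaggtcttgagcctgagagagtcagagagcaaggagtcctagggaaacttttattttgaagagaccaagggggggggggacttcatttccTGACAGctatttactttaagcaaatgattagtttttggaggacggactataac
Pdgfd: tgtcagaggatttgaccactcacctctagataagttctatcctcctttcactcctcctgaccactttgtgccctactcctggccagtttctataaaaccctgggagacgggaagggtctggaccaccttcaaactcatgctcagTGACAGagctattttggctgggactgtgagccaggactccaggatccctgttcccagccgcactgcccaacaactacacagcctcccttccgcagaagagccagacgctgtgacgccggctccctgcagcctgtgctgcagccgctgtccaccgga
Pdgfa: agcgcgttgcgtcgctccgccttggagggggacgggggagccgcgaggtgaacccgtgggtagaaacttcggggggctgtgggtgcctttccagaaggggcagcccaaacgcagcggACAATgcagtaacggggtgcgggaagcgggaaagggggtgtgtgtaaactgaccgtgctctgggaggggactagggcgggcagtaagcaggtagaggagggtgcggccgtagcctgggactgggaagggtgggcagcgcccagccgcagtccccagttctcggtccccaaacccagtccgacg
The other Pdgfa window and the Pdgfc window held neither core. Such matches are common: 19.2% of all 32851 windows held the MEIS core and 31.0% the SOX core. The letters are a description of these windows and do not show binding.

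Among the 7 members, 6 were lower in the PreASKO library and 1, Pdgfb, was higher. All 3 receptor genes were lower, by 1.49- to 1.79-fold, and so were the ligand genes Pdgfa, Pdgfc and Pdgfd, by 1.23- to 1.56-fold. Pdgfb stood 2.14-fold higher and was the one member past the 2-fold limit that the series' design text uses. Levels are in CPM, the count of a gene scaled to the total of its library, and ratios are PreASKO over floxed. Parentheses hold exact 95% intervals, which reflect the counting of reads and no spread between mice. They treat each count as a number of separate reads. For most members the counts are largely estimated (repeat-distributed) counts, and the error of that estimation is not included. Over the whole table, 54.2% of the 18911 genes that reached 10 counts in either library were lower in PreASKO, 18.2% by over 2-fold, and 9.08% were over 2-fold higher. Among the 12982 genes with 100 or more counts, a depth that every member reached, the shares were 51.5% lower, 8.0% over 2-fold lower and 3.4% over 2-fold higher. In bulk RNA, fewer cells of a type and less RNA per cell cannot be told apart.

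**Figure D1:**
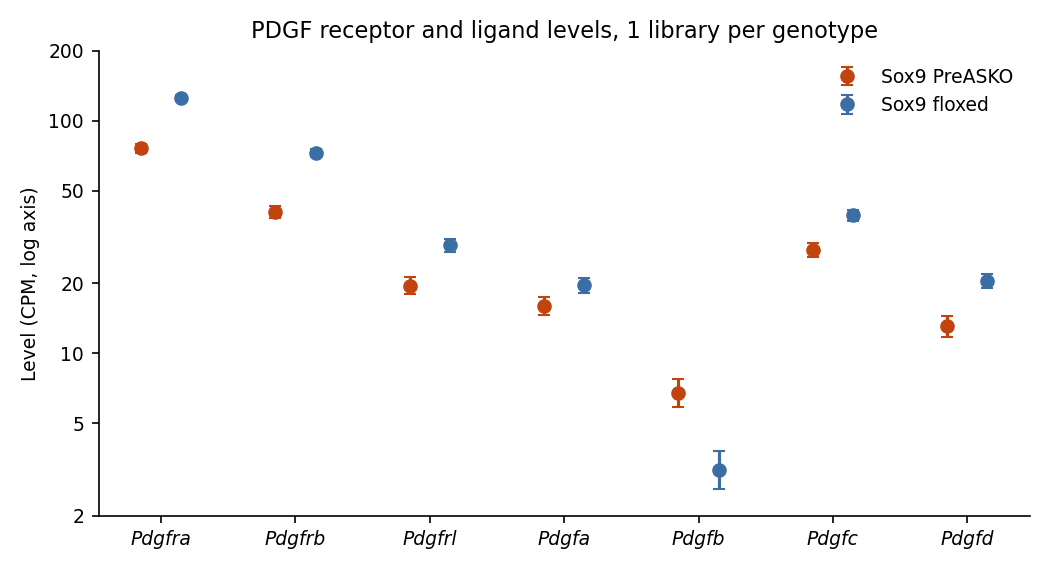
Level of each member in CPM on a log axis in the Sox9 PreASKO and the Sox9 floxed library, with exact 95% Poisson intervals, 1 library per genotype. The PreASKO point lies below the floxed point for 6 members and above it for Pdgfb, at 6.75 CPM in PreASKO and 3.16 CPM in floxed cells.

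The libraries held 29172653 counts for PreASKO and 37705236 for floxed cells, so that 1 CPM stands for 29.2 counts in PreASKO and 37.7 in floxed cells. Sox9, the targeted gene, stood at 2.50 CPM in PreASKO and 6.05 CPM in floxed cells, a ratio of 0.414 (0.314 to 0.541). Dlk1 was detected at 24.0 CPM in PreASKO and 28.2 CPM in floxed cells. Markers of other cell types were abundant under the GFP+ label: 11 macrophage genes summed to 18870 CPM in PreASKO and 12580 CPM in floxed cells, and 12 endothelial genes to 1076 CPM in PreASKO and 973 CPM in floxed cells. The 9 mesothelial markers were all over 2-fold lower, beside 18.2% of all genes with 10 or more counts. They summed to 144 counts in PreASKO and 6655 in floxed cells. The part of these cell types in the members' ratios was not tested.

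Pdgfra encodes the alpha receptor and was the member with the highest CPM. It had 2217 counts in the PreASKO library, 76.0 CPM (72.9 to 79.2), and 4717 counts in the floxed library, 125 CPM (122 to 129). The intervals do not overlap, and the ratio was 0.608 (0.577 to 0.639). Of genes with 100 or more counts, 13.3% had a lower ratio. Its locus (gene ID 18595) spans 75151322 to 75198206 of chromosome 5 in GRCm38. All of its counts came from the repeat-distributed column, which the sources used here do not define and which the name describes as reads shared out between several places. RefSeq lists 8 transcripts for Pdgfra, 1 for Pdgfrl and 6 for Pdgfb.

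Pdgfrb encodes the beta receptor and had the lowest ratio of the family. Its level was 40.6 CPM (38.3 to 43.0) in PreASKO cells, from 1184 counts, and 72.8 CPM (70.1 to 75.6) in floxed cells, from 2745 counts. The ratio was 0.558 (0.520 to 0.597), and 10.6% of genes with 100 or more counts had a lower one. The authors' deposited table gives Pdgfrb a fold of 0.624, above that interval, and a fold of 0.658 for Pdgfd. For the other 5 members the fold in the authors' deposited table equals the ratio given here to 3 digits. Its locus (gene ID 18596) spans 61045127 to 61085067 of chromosome 18.

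The counts of Pdgfrl, the receptor-like gene, were raw counts alone. It stood at 19.5 CPM (18.0 to 21.2) in PreASKO cells and 29.1 CPM (27.4 to 30.8) in floxed cells, from 570 counts in PreASKO and 1096 in floxed cells. The ratio was 0.672 (0.606 to 0.744), or 0.692 (0.625 to 0.767) when scaled to raw counts alone, and it has the same direction as those of the kinase receptors. Its locus (gene ID 68797) spans 40926233 to 40990782 of chromosome 8.

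The proportion of alpha to beta receptor counts differed little between the libraries. Pdgfra made up 65.2% (63.6 to 66.8) of their joint counts in PreASKO cells and 63.2% (62.1 to 64.3) in floxed cells. The ratio of Pdgfrb was 0.918 times that of Pdgfra (0.842 to 0.9998), an interval that ends just short of 1 and does not depend on library scaling. Taken per kilobase of annotated exon (GENCODE M21), Pdgfrl had the highest level of the family, with 12.6 CPM per kb in PreASKO and 18.8 CPM per kb in floxed cells, and Pdgfra followed with 8.67 CPM per kb in PreASKO and 14.3 CPM per kb in floxed cells. Pdgfrb stood at 7.41 CPM per kb (6.99 to 7.84) in PreASKO and 13.3 CPM per kb (12.8 to 13.8) in floxed cells. With the longest transcript as the length, Pdgfra came to 11.1 CPM per kb in PreASKO and 18.3 CPM per kb in floxed cells, nearer to Pdgfrl than by merged exons, and the order of the 3 receptor genes was the same by both lengths.

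Among the ligands, Pdgfc had the highest level. It encodes a chain that is secreted with an inhibitory domain and acts through the alpha receptor once that domain is cut off. It stood at 27.8 CPM (25.9 to 29.8) in PreASKO cells, from 810 counts, and 39.2 CPM (37.2 to 41.2) in floxed cells, from 1477 counts, a ratio of 0.709 (0.650 to 0.773). The raw counts alone, 66 in PreASKO and 85 in floxed cells, gave a ratio of 1.03 (0.738 to 1.44), whereas the repeat-distributed counts, 744 in PreASKO and 1392 in floxed cells, gave 0.671 (0.613 to 0.734). By these values the lower level of Pdgfc lies in the repeat-distributed column. Each of these ratios is scaled to the total of its own column. The narrow gap between their intervals depends on that scaling, so a difference between the columns is not established. The locus of Pdgfc (gene ID 54635) spans 81036416 to 81214040 of chromosome 3.

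Pdgfd encodes the chain that acts mainly through the beta receptor, likewise after cleavage. It had 381 counts in PreASKO, 13.1 CPM (11.8 to 14.4), and 769 counts in floxed cells, 20.4 CPM (19.0 to 21.9). The ratio was 0.640 (0.565 to 0.725), and the locus (gene ID 71785) spans 6168363 to 6534284 of chromosome 9. Pdgfa, the classical ligand of the alpha receptor, differed least. It stood at 16.0 CPM (14.6 to 17.5) in PreASKO cells and 19.6 CPM (18.2 to 21.1) in floxed cells, from 466 counts in PreASKO and 740 in floxed cells, a ratio of 0.814 (0.723 to 0.915). The locus of Pdgfa (gene ID 18590) spans 138976014 to 139000792 of chromosome 5. GENCODE places an antisense gene, 6330403L08Rik, over 813 exon bases of Pdgfa, and antisense genes share 456 exon bases with Pdgfra and 147 with Pdgfc. Strand use in the counting is not given in the sources used here, so reads of these genes and their antisense partners cannot be told apart.

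Pdgfb encodes the B chain, which binds both receptors and recruits mural cells to vessels. It was the rarest member in both libraries, with 197 counts in PreASKO, 6.75 CPM (5.84 to 7.77), and 119 counts in floxed cells, 3.16 CPM (2.62 to 3.78). The ratio was 2.14 (1.70 to 2.71), so that counting error alone leaves values on both sides of 2. Of genes with 100 or more counts, 97.2% had a lower ratio. The raw counts were 8 in PreASKO and 10 in floxed cells, too few to place (ratio 1.06, 0.365 to 3.00), and 189 repeat-distributed counts in PreASKO and 109 in floxed cells carried the difference. With 1 added to each CPM before taking log2, a step that shrinks the values of weakly expressed genes, Pdgfb came to 0.90 and lay inside the 2-fold limit. Its locus (gene ID 18591) spans 79995865 to 80024614 of chromosome 15.

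**Figure D2:**
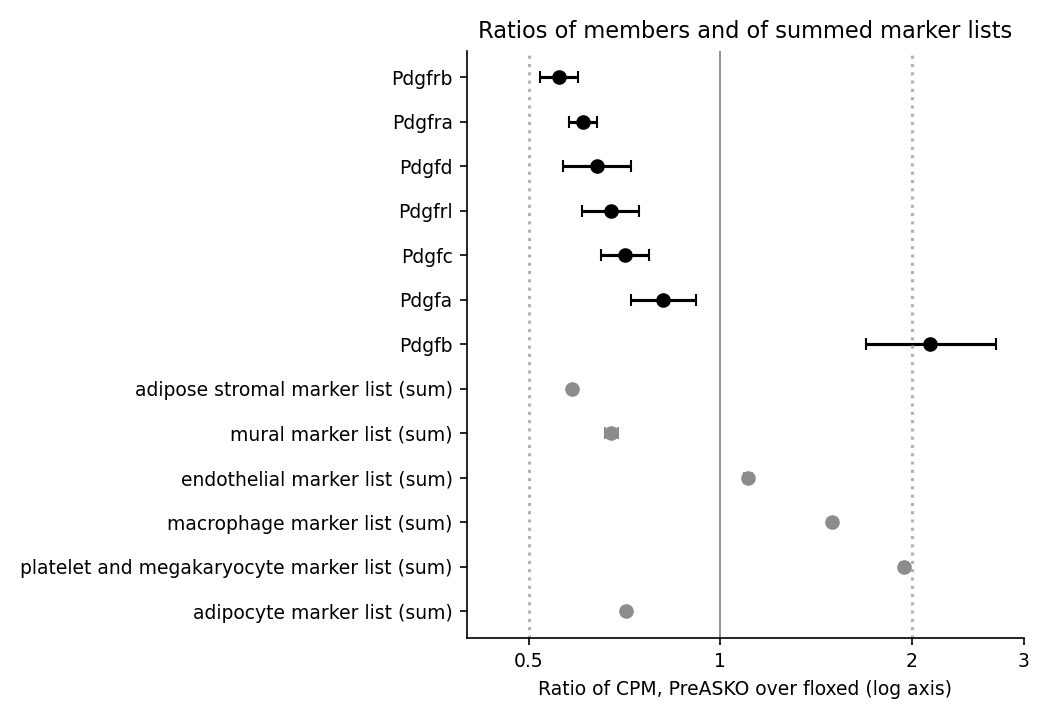
Ratio of CPM, PreASKO over floxed, on a log axis for each member (black) and for the summed counts of marker lists (grey), with exact 95% counting intervals. Dotted lines mark 2-fold. The mesothelial marker list, at a ratio of 0.028, is not drawn. Members run between 0.558 and 0.814 apart from Pdgfb at 2.14, and the stromal list stands at 0.585.

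In order of ratio from the lowest, the members ran Pdgfrb, Pdgfra, Pdgfd, Pdgfrl, Pdgfc, Pdgfa and Pdgfb. From Pdgfra to Pdgfa no neighbours in this order differed beyond counting error. The ratio of Pdgfra was 0.949 times that of Pdgfd (0.829 to 1.09), and the ratio of Pdgfc was 0.871 times that of Pdgfa (0.752 to 1.01). Some members farther apart in the order did differ, and the ratio of Pdgfra was 0.746 times that of Pdgfa (0.657 to 0.849). Every member stood apart from Pdgfb, the nearest being Pdgfa, whose ratio was 0.380 times that of Pdgfb (0.292 to 0.495). The intervals of such pairs were not adjusted for their number and compare 2 libraries.

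The make-up of the ligand pool differed between the libraries mainly through Pdgfb. Pdgfb held 10.6% (9.26 to 12.1) of the counts of the 4 ligand genes in PreASKO and 3.83% (3.19 to 4.57) in floxed cells. Pdgfc held 43.7% (41.4 to 46.0) in PreASKO and 47.6% (45.8 to 49.3) in floxed cells, and Pdgfd 20.6% (18.7 to 22.5) in PreASKO and 24.8% (23.3 to 26.3) in floxed cells. The share of Pdgfa was 25.1% (23.2 to 27.2) in PreASKO and 23.8% (22.3 to 25.4) in floxed cells. The intervals of the libraries overlap for Pdgfa and, narrowly, for Pdgfc. Per length, Pdgfc remained the most abundant ligand, at 7.89 CPM per kb in PreASKO and 11.1 CPM per kb in floxed cells, although Pdgfa came close to it when taken by its longest transcript, at 7.75 CPM per kb in PreASKO and 9.53 CPM per kb in floxed cells. Summed over the genes, there were 2.14 receptor counts per ligand count in PreASKO and 2.76 in floxed cells, lower by a factor of 0.777 (0.725 to 0.833).

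**Figure D3:**
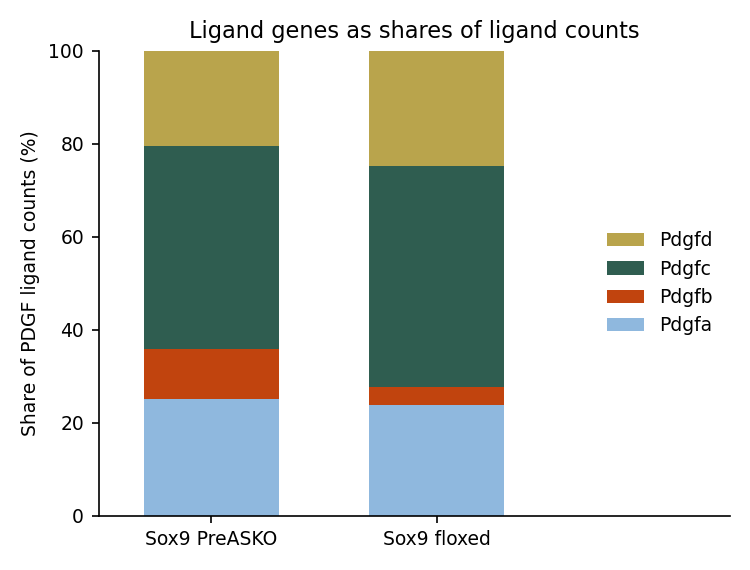
Share of the counts of the 4 PDGF ligand genes taken by each gene, in percent, in the Sox9 PreASKO and the Sox9 floxed library. Pdgfb takes 10.6% in PreASKO and 3.83% in floxed cells, and Pdgfc is the largest part of both bars.

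Markers of adipose stroma and of other cell types were read in the same 2 libraries. For adipose stroma, 19 of 20 markers had a ratio under 1, beside 54.2% of all genes with 10 or more counts. The median log2 ratio of the markers was -0.74, against -0.07 over all those genes. Their sum, that of the 20 markers, stood at 23940 CPM in PreASKO and 40890 CPM in floxed cells, a ratio of 0.585. Measured against that sum, Pdgfra came to 1.04 (0.986 to 1.09), Pdgfrb to 0.952 (0.889 to 1.02) and Pdgfd to 1.09 (0.965 to 1.24), each within counting error of equal. Pdgfrl at 1.15 (1.04 to 1.27), Pdgfc at 1.21 (1.11 to 1.32) and Pdgfa at 1.39 (1.24 to 1.56) lay above it. In that sum the collagen genes Col1a2, Col3a1 and Col1a1 held 173509, 153736 and 125131 of 698398 counts in PreASKO. In floxed cells they held 397685, 368441 and 237157 of 1541780 counts. The stromal list sum is taken as exact in these intervals, and choosing it as the yardstick turns the direction of 5 of the members that are lower by library total.

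Among all genes of the lists with 100 or more counts, those nearest to Pdgfra in log2 ratio were the stromal genes Ly6a, Col6a1 and Cd34, with ratios of 0.608, 0.608 and 0.604. The platelet marker Itga2b, at 0.604, was as near as Cd34. Nearest to Pdgfrb were Cidec, an adipocyte lipid droplet gene, at 0.557 and the stromal genes Col1a2 at 0.564 and Mfap5 at 0.544. Likeness here means a single ratio over 2 libraries. Only genes of the 16 lists were searched, and these were chosen with earlier results known. The 20 stromal markers among them had a median log2 ratio of -0.74, near the -0.72 of Pdgfra. Nearness to a stromal gene therefore carries little weight. Stromal genes also included lower ones, such as Dpp4 at 0.275 and Pi16 at 0.425, markers of interstitial precursors.

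Mural markers were lower in 9 of 12 cases, beside 54.2% of all genes with 10 or more counts. Their median log2 ratio was -0.28, and their sum stood at 367 CPM in PreASKO and 545 CPM in floxed cells. Acta2, the smooth muscle actin gene, had a ratio of 0.600 (0.579 to 0.622), the channel subunit gene Abcc9 0.495 (0.453 to 0.541) and the desmin gene Des 0.485 (0.402 to 0.582), the lowest of the list together with Myh11, the smooth muscle myosin gene, at 0.617 (0.580 to 0.656). Kcnj8 at 0.736 (0.656 to 0.826) and Notch3 at 0.770 (0.703 to 0.842) were also lower, while others lay near or above 1. Among the latter were Cspg4 at 0.979 (0.889 to 1.08), Rgs5 at 0.884 (0.750 to 1.04) and Tagln at 1.02 (0.937 to 1.12). These genes, from Kcnj8 to Tagln, were chosen after their values were seen. The ratio of Pdgfrb was 0.827 times that of the summed mural list (0.772 to 0.886), a sum in which Acta2 alone holds 4332 of 10716 counts in PreASKO and 9331 of 20547 in floxed cells. Of 8 adipocyte markers 7 were lower, and their sum stood at 2443 CPM in PreASKO and 3435 CPM in floxed cells.

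For Pdgfb the comparison was with vessel and blood cell markers. Of 12 endothelial markers 5 were lower and 7 higher, beside 54.2% lower among all genes with 10 or more counts. Their median log2 ratio was 0.05, and their sum had a ratio of 1.11 (1.09 to 1.12). Cdh5 and Pecam1, the most abundant of them by mean CPM, had ratios of 1.158 (1.119 to 1.198) and 1.039 (1.003 to 1.076). Vwf, the von Willebrand factor gene, was the highest of them by ratio at 1.70 (1.63 to 1.76). Tek, chosen after its values were seen, was the lowest at 0.66 (0.62 to 0.70). The ratio of Pdgfb was 1.94 times that of the endothelial sum (1.53 to 2.45) and 1.43 times that of the macrophage sum (1.13 to 1.80). All 11 macrophage markers were higher in PreASKO, between 0.35 and 0.97 on the log2 scale.

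Platelets store PDGF, and 7 of 10 platelet and megakaryocyte markers were listed in the table. Their sum had a ratio of 1.94, against which Pdgfb came to 1.10 (0.872 to 1.39), but Pf4, a chemokine gene that some mouse macrophages also express, held nearly all of it with 76719 counts in PreASKO and 50406 in floxed cells. Without Pf4, an exclusion made after its values were seen, the list had 367 counts in PreASKO and 845 in floxed cells, a ratio of 0.561 (0.495 to 0.635). Itga2b, an integrin gene that defines the lineage, had 338 counts in PreASKO and 723 in floxed cells. Gp1ba, a platelet glycoprotein gene, had 0 counts in PreASKO and 30 in floxed cells. The part of any of these cell types in the Pdgfb ratio was not tested.

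Genes whose products cut PDGF chains into active form were lower in 5 of 7 cases, with a median log2 ratio of -0.51. Plat, the tissue plasminogen activator gene, whose enzyme activates the C chain, stood at 34.0 CPM in PreASKO and 76.0 CPM in floxed cells, a ratio of 0.447 (0.416 to 0.481). Plau, the urokinase gene, whose enzyme can activate the D chain, had a ratio of 0.820 (0.773 to 0.869). Among the proprotein convertases, which cut the A and B chains, Furin had a ratio of 0.702 (0.658 to 0.750) and Pcsk5 0.479 (0.426 to 0.538), while Pcsk7 was higher at 1.36 (1.29 to 1.43). St14, which encodes the epithelial protease matriptase, had 168 counts in PreASKO and 95 in floxed cells, a ratio of 2.29 (1.77 to 2.97). In this list, then, 2 genes were over 2-fold lower and 1 over 2-fold higher. Of all genes with 100 or more counts, 51.5% were lower, 8.0% over 2-fold lower and 3.4% over 2-fold higher.

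Genes that carry the signal inside the cell had ratios on both sides of 1 in near equal number. Of 29 adaptor, kinase and transcription factor genes 13 were lower and 16 higher, with a median log2 ratio of 0.03. Among all genes with 100 or more counts, 51.5% were lower and 8.0% over 2-fold lower. The most abundant were Mapk3, which encodes the kinase ERK1, at a ratio of 1.14 (1.09 to 1.18), the kinase gene Akt2 at 1.17 (1.12 to 1.23) and Nras at 0.946 (0.902 to 0.992). Yes1, a Src family kinase gene, was the one past 2-fold, with 52 counts in PreASKO and 263 in floxed cells, a ratio of 0.256 (0.186 to 0.345). These genes act below many receptors and are expressed by most cell types.

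Of 17 genes that restrain receptor signalling 7 were lower and 10 higher, with a median log2 ratio of 0.16. Of all genes with 10 or more counts, 54.2% were lower and 18.2% over 2-fold lower. Spry2, an inhibitor of the Ras pathway that growth factors induce, was the lowest, with 96 counts in PreASKO and 617 in floxed cells, a ratio of 0.201 (0.161 to 0.250), and the phosphatase gene Dusp4 had a ratio of 0.471 (0.387 to 0.572). Dusp6, the phosphatase of ERK, stood at 149 CPM in PreASKO and 118 CPM in floxed cells. Lrp1, a large endocytic receptor that associates with the beta receptor, had a ratio of 0.903 (0.886 to 0.921) and Ptprj, a phosphatase that acts on it, 1.28 (1.23 to 1.33).

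Immediate response genes, which PDGF and many other stimuli induce within minutes, were 7 lower and 9 higher among 16 past the count minimum, and none was past 2-fold. Of all genes past that minimum, 54.2% were lower, 18.2% over 2-fold lower and 9.08% over 2-fold higher. Egr1 was the most abundant, at 1136 CPM in PreASKO and 1139 CPM in floxed cells, a ratio of 0.997 (0.983 to 1.01). Fos stood at 669 CPM in PreASKO and 768 CPM in floxed cells, and Jun at 683 CPM in PreASKO and 714 CPM in floxed cells.

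**Figure D4:**
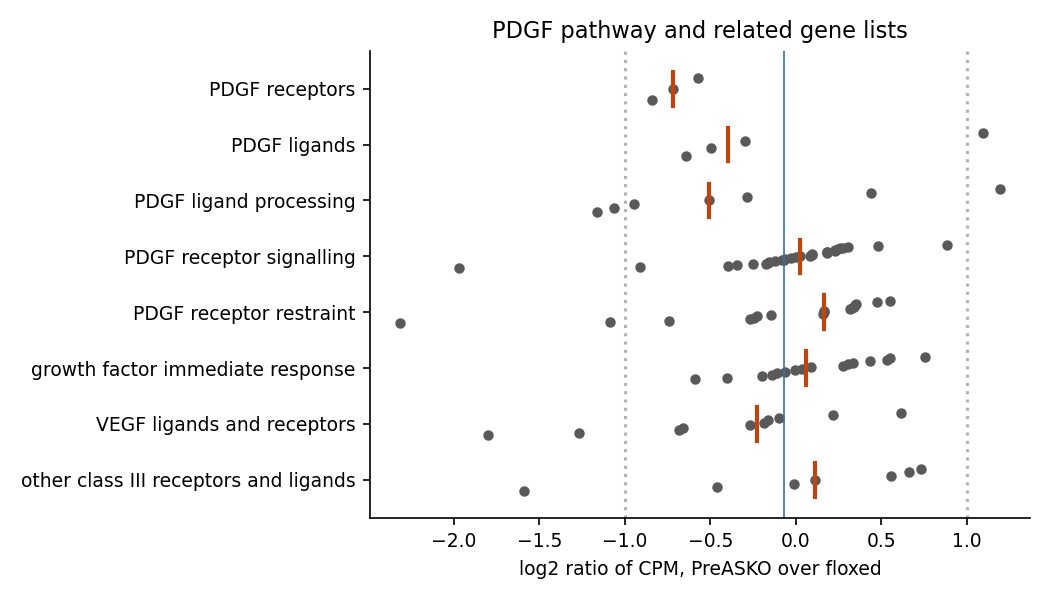
Log2 ratio of CPM, PreASKO over floxed, for each gene (points) of the PDGF lists and of lists of related genes, with each list's median (thick line). The thin line marks the median of all genes with 10 or more counts, -0.07, and dotted lines mark 2-fold. The receptor list lies wholly below 0 with a median of -0.72, and the signalling list has its median at 0.03.

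Set against Dlk1, the gene behind the Pref-1 label, Pdgfra was lower in PreASKO. There were 2217 Pdgfra counts beside 700 Dlk1 counts in PreASKO and 4717 beside 1064 in floxed cells, so that the ratio of Pdgfra was 0.714 times that of Dlk1 (0.641 to 0.797). Against Meis1, with 130 counts in PreASKO and 335 in floxed cells, it was 1.21 (0.980 to 1.50). Against Sox9, with 73 counts in PreASKO and 228 in floxed cells, it was 1.47 (1.12 to 1.95). Sox9 is the targeted gene and had a ratio of 0.414 itself. Against it the members ran from 1.35 for Pdgfrb to 5.17 for Pdgfb, so a value above 1 is not particular to Pdgfra. These values are free of library scaling and have no replicate check.

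**Figure D5:**
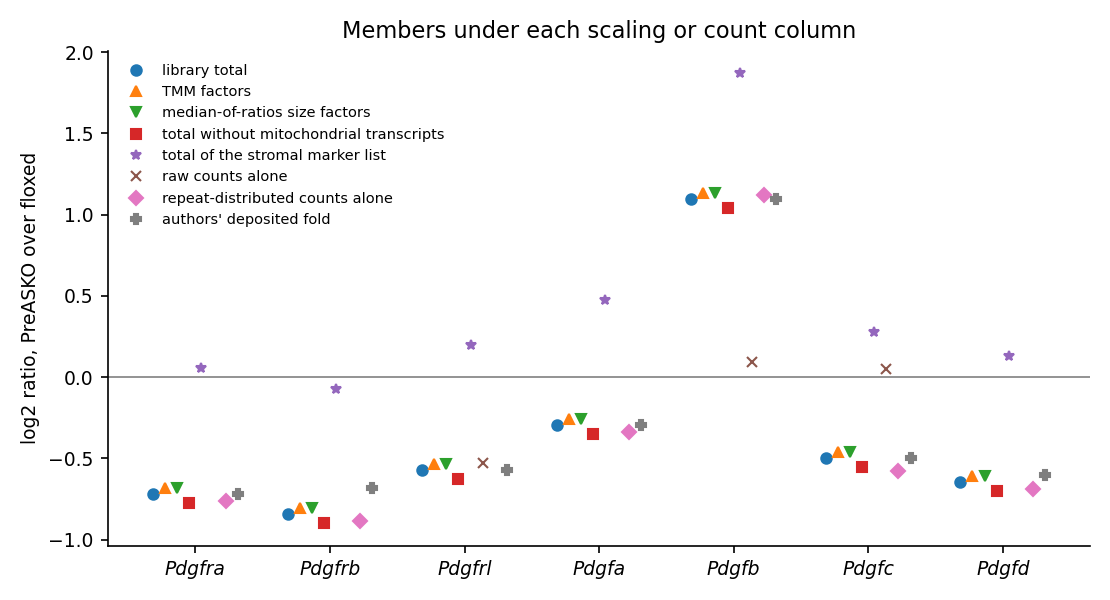
Log2 ratio, PreASKO over floxed, of each member under several scalings and count columns. The 6 lower members stay below 0 except when scaled to the stromal marker list, where Pdgfrb alone is below 0 at -0.07, and except Pdgfc in raw counts alone, at 0.05.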

How the data were processed

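Polyadenylated RNA of sorted GFP+ cells was sequenced, 1 pooled library per genotype, with groups from the genotype label. Raw counts, whole numbers, and repeat-distributed counts, which are estimated counts, were deposited by the authors, with a fold ratio and its log2, PreASKO over floxed per the file headers. Per the submitters' processing notes, mm10 was the genome used. Aligner, counter and strand use are not given in any source used.

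Both count columns were summed, rounded and divided by the library total. Intervals are exact, conditional for ratios and Poisson for levels, at 95%. They take the rounded sums as read counts, so the error in the estimated part is left out. A count of 0 was set to a floor of 3 for ratios. Genes below 10 counts in both libraries were left out of counts over all genes. With 1 library per group no test or p-value was possible. The interval code was tested on simulated data. Exon lengths are from GENCODE M21, loci and promoters from RefSeq GRCm38.p6. TMM factors came from edgeR 4.0.16 and intervals from scipy 1.17.1.

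The members and the 16 gene lists were chosen with earlier results of these data known. Named genes come from a rule: the members, the 3 most abundant genes of each list, list genes past 2-fold with 100 or more counts, Sox9, Meis1 and Dlk1, and the 3 list genes nearest in ratio to Pdgfra and Pdgfrb. Some genes that meet the rule are not named, among them Flt3l, Dpt, Lyz2, Adipoq and Msln. Cspg4, Rgs5, Tagln, Kcnj8, Notch3, Tek, Gp1ba, Vegfa, Vegfc, Flt1, Kit and Kitl fall outside the rule and were chosen after their values were seen. So was the platelet list without Pf4.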

Additional observations from a re-analysis of the deposited data

How the results depend on the processing

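Leaving out a replicate was not possible. No paired analysis was possible because each group has 1 library. TMM factors, median-of-ratios size factors, a total without mitochondrial transcripts and pseudocounts of 0.1 or 1 left every member's log2 ratio inside its counting interval. Scaling to the stromal marker list shifts every gene by 0.77 on the log2 scale. It left 1 member lower, and the log2 ratios became 0.053 for Pdgfra, 0.20 for Pdgfrl, 0.48 for Pdgfa, 0.28 for Pdgfc, 0.13 for Pdgfd and -0.07 for Pdgfrb, with Pdgfb at 1.87. Raw counts alone could be used for 3 members, of which 1 was lower and 0 were past 2-fold, with Pdgfc at 0.048 and Pdgfb at 0.09. On the log2(CPM + 1) scale 0 members were past 2-fold. The fold in the authors' deposited table put Pdgfrb at -0.68, against -0.84 here.

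Over all genes, 3439 were over 2-fold lower and 1717 over 2-fold higher in PreASKO. The counts were 1886 lower and 5990 higher with the stromal scaling, 1963 lower and 796 higher with repeat-distributed counts alone (fewer genes tested), 1124 lower and 587 higher with log2(CPM + 1), and 1039 lower and 442 higher with a minimum of 100 counts. Without a minimum 3397 were over 2-fold higher.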

Other observations

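Relatives of the PDGF family were read in the same libraries. The VEGF ligands share the cystine-knot fold of the PDGF chains. Of 10 VEGF ligand and receptor genes 8 had a ratio under 1, beside 54.2% of all genes with 10 or more counts. Their median log2 ratio was -0.23. The most abundant were the co-receptor genes Nrp1, with a ratio of 0.935 (0.909 to 0.962), and Nrp2, with 1.16 (1.10 to 1.23), and the endothelial receptor gene Kdr, with 0.880 (0.833 to 0.929). Figf, which encodes VEGF-D, a ligand of lymphatic growth, stood at 30.1 CPM in PreASKO and 72.5 CPM in floxed cells, a ratio of 0.415 (0.385 to 0.448). Vegfa and Vegfc had ratios of 0.632 (0.566 to 0.705) and 0.622 (0.505 to 0.763), while the receptor gene Flt1 was higher at 1.53 (1.42 to 1.65). Vegfa, Vegfc and Flt1 were chosen after their values were seen.

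The other class III receptor tyrosine kinases are CSF1R, KIT and FLT3. Csf1r, the receptor gene of macrophages, stood at 2564 CPM in PreASKO and 1620 CPM in floxed cells, a ratio of 1.58 (1.57 to 1.60). Its ligand genes had ratios under 1, Csf1 with a ratio of 0.727 (0.667 to 0.792) and Il34 with 48 counts in PreASKO and 187 in floxed cells, a ratio of 0.332 (0.236 to 0.458). Kit, the receptor of stem cell factor, had a ratio of 1.47 (1.26 to 1.72) and its ligand gene Kitl 0.991 (0.833 to 1.18), both chosen after their values were seen. No difference between these families and the PDGF genes was tested.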
